A study of Mus musculus with 8 samples.

Results

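*Col2a1*, which encodes the chain of type II collagen, was described here with 9 genes of cartilage and bone formation in mouse aortic smooth muscle cells (MASMCs) that lacked *Hint1* or were WT. The 10 genes were taken by symbol from the 18533 genes in the count files: *Col2a1*; the transcription factors *Sox9*, *Sox5*, *Sox6*, *Runx2* and *Sp7*; and the matrix genes *Acan*, *Comp*, *Hapln1* and *Matn3*. *Col2a1* was chosen by its rise in *Hint1*-/- against WT counts of these same samples, so its values are given as a description with no test, and the other 9 were listed for their roles. The question was whether *Col2a1* rose alone or with the other genes of cartilage.

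RNA was sequenced from 4 samples of MASMCs from WT mice and 4 from *Hint1*-/- mice, a knockout line whose deleted part is not given in the sources used here, and every sample had been treated with PDGF-BB at 20 ng/mL for 24 h. PDGF-BB is a growth factor that moves cultured smooth muscle cells away from the contractile state, and there was no unstimulated group, so that the values speak of the genotypes under PDGF-BB only. The cells were primary cultures of digested aorta, from which the adventitia and the endothelium had been removed, from male mice of 4 to 6 weeks by the study's methods. The main methods name the thoracic aorta, while the supplement names the whole aorta, so the part of the aorta used is not settled. Nothing in the labels says that the samples came from separate mice or cultures, so the p-values measure only the spread between these samples, which may be technical.

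Chondrocytes build cartilage around fibrils of type II collagen. Sox9 is the transcription factor that starts their differentiation, and Sox5 and Sox6 act with it on enhancers of *Col2a1* and *Acan*. Aggrecan, the product of *Acan*, is a large proteoglycan that holds water in cartilage, and the link protein encoded by *Hapln1* fastens it to hyaluronan. Matrilin 3 (*Matn3*) and cartilage oligomeric matrix protein (*Comp*) connect the fibrils with the rest of the matrix, and *Comp* is also made by tendon and vascular smooth muscle cells. Runx2 and Sp7 (osterix) drive hypertrophic cartilage and bone formation. Smooth muscle cells of diseased arteries can take on features of chondrocytes and osteoblasts.

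The libraries held 20778077 to 20888041 estimated counts each, and the share of the 20 most abundant genes was 8.38% to 8.49% in WT and 8.10% to 8.27% in *Hint1*-/- samples. *Hint1* itself had 2272 to 2364 counts in WT and 713 to 778 in *Hint1*-/- samples, so that 32.1% of the WT level was left in CPM (counts scaled to library size). Which part of the gene the remaining counts came from cannot be read from counts per gene. No library stood apart from its label, and libraries of 1 genotype differed by more than counting noise. A gene was called changed when the edgeR quasi-likelihood test gave a Benjamini-Hochberg adjusted p under 0.05 over all 13535 genes tested and the fitted fold change was over 1.5. Of these genes, 2.83% were called, 1.34% as higher and 1.49% as lower in *Hint1*-/- samples.

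Several members have close relatives that these cells express at other levels, so the sequences that could confuse a read of 50 bases are shown first. For each member, the transcript with the longest coding sequence was cut into windows of 50 bases. Every window of *Col2a1*, *Sox9*, *Sox6*, *Acan*, *Comp*, *Matn3*, *Runx2* and *Sp7* was absent from the transcripts of all other genes on either strand. The shares of such windows were 99.2% for *Sox5* and 99.6% for *Hapln1*. Exons outside these transcripts were not checked. The transcript of *Runx2* had 1791 bases beside 8837 in all its exons, and that of *Sox6* 2863 beside 14832. Some estimated counts were not whole numbers, such as 51.47 for *Sox6* in WT replicate 3. The windows thus do not show that every read of these genes was unique. The most similar coding windows of *Col2a1* and *Col1a1*, the gene for the main chain of type I collagen, differed at 5 of 50 bases, which are given in capitals below. In the GENCODE M21 annotation of mm10 both windows span an exon junction, at chr15:97996137-97996518 on the minus strand for *Col2a1* and chr11:94939928-94940137 on the plus strand for *Col1a1*.
Col2a1: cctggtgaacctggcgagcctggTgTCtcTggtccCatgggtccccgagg
Col1a1: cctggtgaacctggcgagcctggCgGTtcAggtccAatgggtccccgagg

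*Sox9* and *Sox10*, a relative that marks Schwann cells and neural crest, were the closest of the pairs compared. Their most similar coding windows, at chr11:112782831-112782880 (plus strand, exon 1) and chr15:79163424-79163473 (minus strand, exon 3), differed at 2 bases. Of the 1472 coding windows of *Sox9*, 6 (0.408%) were within 2 mismatches of *Sox10*, and these lines show how little separates the genes there.
Sox9: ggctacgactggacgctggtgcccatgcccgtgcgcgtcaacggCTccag
Sox10: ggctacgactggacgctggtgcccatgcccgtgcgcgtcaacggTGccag

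*Sox5* and *Sox6* are themselves relatives, and their most similar windows differed at 6 bases. The *Sox5* window lies in exon 13 at chr6:143841245-143841294 and the *Sox6* window in exon 14 at chr7:115489734-115489783, both on the minus strand.
Sox5: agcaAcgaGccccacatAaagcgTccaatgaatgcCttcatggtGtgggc
Sox6: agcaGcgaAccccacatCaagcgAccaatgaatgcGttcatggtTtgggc

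*Comp* is a member of the thrombospondin family, and its closest window in *Thbs3* differed at 5 bases. The windows span exon junctions at chr8:70379525-70379682 and chr3:89224417-89224578, both on the plus strand.
Comp: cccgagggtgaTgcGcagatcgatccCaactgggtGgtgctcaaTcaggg
Thbs3: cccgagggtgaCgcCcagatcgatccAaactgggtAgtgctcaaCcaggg

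*Col2a1* was about 10-fold higher in *Hint1*-/- samples. The 4 WT samples had 43, 44, 52 and 52 counts, and the 4 *Hint1*-/- samples had 525, 488, 503 and 507. All *Hint1*-/- samples were thus far above all WT samples, and samples of 1 genotype lay close together. This corresponds to 2.28 ± 0.237 CPM for WT against 24.4 ± 0.721 CPM for *Hint1*-/- (SD, n = 4 each), and the fitted log2 fold change was 3.41 with a standard error of 0.080 and a 95% interval of 3.24 to 3.58, a fold of 10.6. Among the 12781 tested genes that averaged 20 or more counts, it ranked 2 by log2 fold change, after *Myh6*. In all, 49 tested genes had a fitted fold over 2 in this direction.

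Of the 9 other genes, 6 passed the filter on low counts, and their values went both ways. *Comp* was called higher and *Acan* lower, *Sox9* and *Sox5* rose within the fold limit, and *Sox6* and *Runx2* did not pass the test. *Hapln1*, *Matn3* and *Sp7* were too low to be tested. The calls were thus 2 of 6, beside 2.83% over all genes, and 4 of 6 had an adjusted p under 0.05 (3 higher, 1 lower), beside 21.5% over all genes, of which 11.2% were higher and 10.2% lower. WT and *Hint1*-/- values were fully separate for 4 of the 6, beside 23.0% over the whole table. The median log2 fold change of the 6 was 0.18, and that of all tested genes was 0.00031. *Acan* entered the test only through its WT samples, so these counts describe the genes and support nothing about the list.

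**Figure D1:**
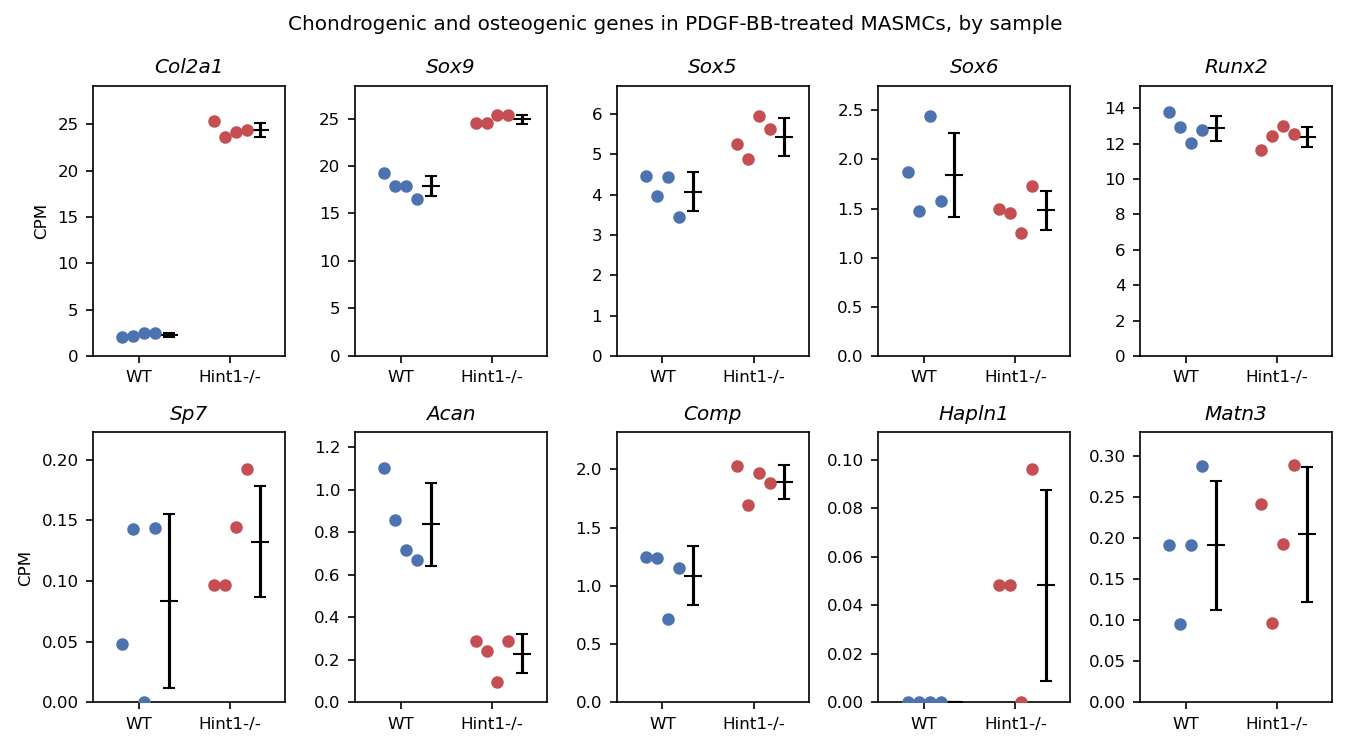
Level of each of the 10 genes in CPM on a linear axis that starts at 0, with 1 point per sample (WT in blue, *Hint1*-/- in red) and the mean with SD in black (n = 4 each). *Col2a1* averages 2.28 CPM in WT against 24.4 CPM in *Hint1*-/- samples, *Acan* goes the other way, and *Sox6*, *Runx2*, *Sp7* and *Matn3* overlap between the genotypes.

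Among the Sox factors, *Sox9* had 401, 375, 375 and 346 counts in WT and 509, 507, 527 and 526 in *Hint1*-/- samples. Every *Hint1*-/- sample was above every WT sample, yet the difference was small beside that of *Col2a1*. The WT level of 17.9 ± 1.08 CPM compares with 24.9 ± 0.468 CPM for *Hint1*-/- (SD, n = 4 each). The log2 fold change was 0.48 with a standard error of 0.055 and a 95% interval of 0.36 to 0.59 (edgeR adjusted p = 3.58e-06), a fold of 1.39, which is inside the fold limit of 1.5.

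*Sox5* had 93, 83, 93 and 72 counts in WT and 109, 101, 124 and 117 in *Hint1*-/- samples. The genotypes did not overlap. Its log2 fold change was 0.41 with a standard error of 0.114 and an interval of 0.18 to 0.65 (edgeR adjusted p = 0.0133). *Sox6* had 39, 31, 51 and 33 counts in WT and 31, 30, 26 and 36 in *Hint1*-/- samples. These values overlapped, and WT replicate 3 was the highest of all. The log2 fold change of *Sox6* was −0.31 with an interval of −0.72 to 0.096 (edgeR adjusted p = 0.283), so that neither no difference nor a fall past the fold limit lies outside the interval. Both genes act as partners of Sox9.

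The matrix genes went in opposite directions. *Acan* had 23, 18, 15 and 14 counts in WT and 6, 5, 2 and 6 in *Hint1*-/- samples. All *Hint1*-/- samples were below all WT samples. The level fell from 0.837 ± 0.194 to 0.229 ± 0.0914 CPM (SD, n = 4 each), with a log2 fold change of −1.84, a standard error of 0.341 and an interval of −2.56 to −1.13 (edgeR adjusted p = 0.000615). This is 3.59-fold lower. *Acan* was near the lower limit of what could be tested, since all 4 WT samples and 0 of 4 *Hint1*-/- samples were over the limit of the filter. A gene that enters through its higher group alone had to differ, so the fit was also read with no filter, where the log2 fold change of *Acan* was −1.84 (edgeR adjusted p = 0.000533).

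*Comp* had 26, 26, 15 and 24 counts in WT and 42, 35, 41 and 39 in *Hint1*-/- samples. The genotypes did not overlap, and WT replicate 3 was below the other WT samples. The level rose from 1.09 ± 0.251 to 1.89 ± 0.147 CPM (SD, n = 4 each), with a log2 fold change of 0.79, a standard error of 0.195 and an interval of 0.38 to 1.20 (edgeR adjusted p = 0.00639). Without WT replicate 3 the log2 fold change of *Comp* was 0.64 (edgeR adjusted p = 0.0279), and the call stood.

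The remaining matrix genes were close to absent. *Hapln1* had 0 counts in each WT sample and 1, 1, 0 and 2 in the *Hint1*-/- samples. These 4 counts against 0 give no usable fold, and with no filter *Hapln1* did not pass the test (edgeR adjusted p = 0.179). *Matn3* had 4, 2, 4 and 6 counts in WT and 5, 2, 4 and 6 in *Hint1*-/- samples, and the ratio of the summed counts was 1.06 with an exact 95% interval of 0.504 to 2.24 for counting error. A change in these genes of the size seen for *Col2a1* lies outside the interval for *Matn3*, and could not be judged at this depth for *Hapln1*.

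Of the factors for hypertrophy and bone, *Runx2* had 287, 272, 252 and 266 counts in WT and 241, 257, 270 and 261 in *Hint1*-/- samples. The genotypes overlapped. The log2 fold change was −0.05 with an interval of −0.19 to 0.083 (edgeR adjusted p = 0.612), so that a change past the fold limit lies outside the interval. *Sp7*, which acts after Runx2 in bone-forming cells, had 1, 3, 0 and 3 counts in WT and 2, 2, 3 and 4 in *Hint1*-/- samples. The ratio of its summed counts was 1.57 with an exact interval of 0.556 to 4.78.

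The order of the genes can be compared only per length, as RPKM (CPM per kilobase of exon). In WT samples *Sox9* was highest at 4.33 RPKM and *Runx2* next at 1.46, and neither overlapped its neighbours. They were followed by *Comp* (0.367 RPKM), *Sox5* (0.284 RPKM) and *Col2a1* (0.247 RPKM), whose values overlapped from 1 gene to the next. *Sox6* (0.124 RPKM), *Acan* (0.112 RPKM), *Matn3* (0.0635 RPKM) and *Sp7* (0.0246 RPKM) came below, each overlapping the next, and *Hapln1* was at 0.

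In *Hint1*-/- samples *Col2a1* stood in place 2 at 2.64 ± 0.0780 RPKM, below *Sox9* at 6.03 ± 0.113 and above *Runx2* at 1.40 ± 0.0643 (SD, n = 4 each), with no overlap with either. *Comp* (0.638 RPKM) and *Sox5* (0.378 RPKM) followed without overlap. *Sox6*, *Matn3*, *Sp7* and *Acan* were between 0.0999 and 0.0307 RPKM and overlapped with their neighbours, and *Hapln1* was at 0.00817 RPKM. *Acan* moved from place 7 to place 9. When the longest transcript of each gene gave the length, *Comp* and *Sox5* changed places in WT samples, and all other places stayed in both genotypes.

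**Figure D2:**
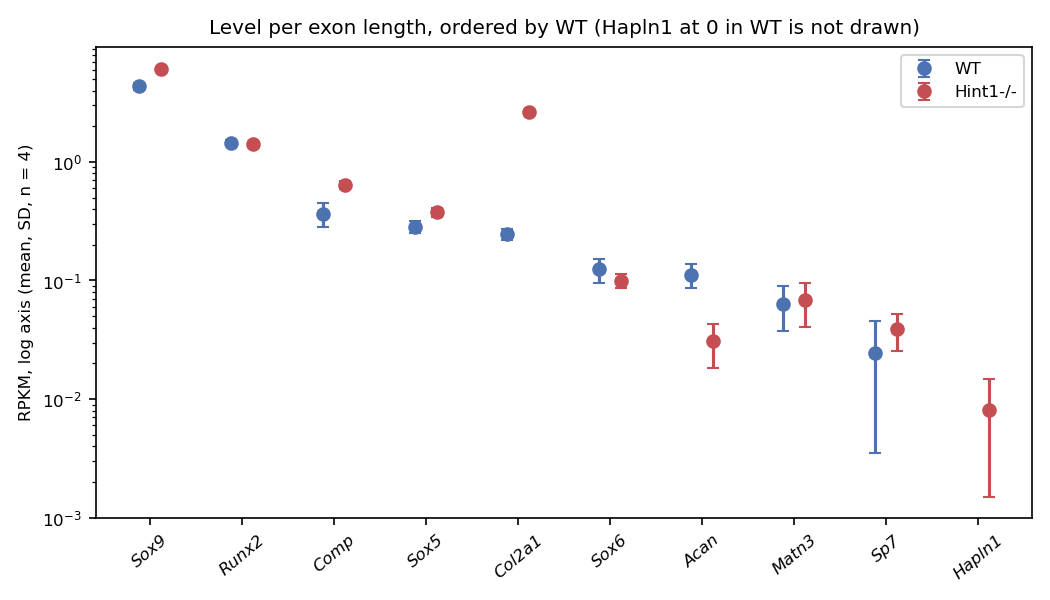
Mean level of the 10 genes in RPKM on a log axis, with SD (n = 4), in WT (blue) and *Hint1*-/- (red) samples, in the order of the WT levels. *Col2a1* moves from 0.247 to 2.64 RPKM, *Sox9* from 4.33 to 6.03 and *Sox5* from 0.284 to 0.378 RPKM, *Runx2* lies at 1.46 and 1.40 RPKM, and *Acan* falls to 0.0307 RPKM.

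Set beside the other collagens that form fibrils, *Col2a1* lay far below type I collagen in both genotypes. *Col1a1* had 562 ± 35.5 RPKM in WT and 501 ± 27.4 RPKM in *Hint1*-/- samples (SD, n = 4 each). The *Col2a1* level per length was 0.0440% of that of *Col1a1* in WT and 0.527% in *Hint1*-/- samples, or 0.862% in the latter by the longest transcripts. *Col11a1*, which encodes a chain of the type XI collagen that is built into cartilage fibrils, had 3.27 ± 0.115 RPKM in WT and 5.22 ± 0.128 RPKM in *Hint1*-/- samples. *Col2a1* was thus below *Col11a1* per length in both genotypes. *Col11a2* had 0.873 ± 0.0679 RPKM in WT and 0.852 ± 0.114 RPKM in *Hint1*-/- samples, and *Col27a1* had 0.521 ± 0.0653 and 0.244 ± 0.0194 RPKM (SD, n = 4 each). *Col2a1* was below both in WT and above both in *Hint1*-/- samples.

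Wider lists of skeletal genes were read in the same fit. They named 101 genes, of which 97 were in the files and 61 were tested. Of these 61, 7 were called (4 higher, 3 lower), or 11.5% beside 2.83% over all genes. Among the 7, *Dlx5* entered the test only through its *Hint1*-/- samples, so this share describes the lists and supports nothing about them. Without the fold limit, 13 were higher and 12 lower, or 25 of 61, beside 21.5% over all genes. The median log2 fold change of the 61 was 0.0038. The 4 listed genes whose symbols were not matched, *Col9a1*, *Cnmd*, *Snorc* and *Cytl1*, were not analysed here.

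Of the other collagens of cartilage, 5 were tested, of which *Col11a1* was called higher and *Col27a1* lower. *Col11a1* had 832 to 903 counts in WT and 1348 to 1428 in *Hint1*-/- samples, with no overlap. This gave a log2 fold change of 0.67 with a standard error of 0.038 (edgeR adjusted p = 2.62e-10). *Col27a1*, a fibrillar collagen gene of developing cartilage, had 124 to 166 counts in WT and 58 to 69 in *Hint1*-/- samples, again with no overlap, and its log2 fold change was −1.09 with a standard error of 0.117 (edgeR adjusted p = 1.44e-06). *Col11a2*, whose product joins those of *Col11a1* and *Col2a1* in type XI collagen, had a log2 fold change of −0.04 (edgeR adjusted p = 0.860).

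Of the 13 other matrix genes of cartilage in the files, 4 could be tested and 1 was called. *Prg4*, which encodes the joint lubricant lubricin, rose from 67 to 93 counts in WT to 124 to 164 in *Hint1*-/- samples, with no overlap and a log2 fold change of 0.82 (edgeR adjusted p = 0.000109). *Chadl*, for a small leucine-rich repeat protein of cartilage, had a log2 fold change of −0.57 (edgeR adjusted p = 0.00285), and *Mgp*, an inhibitor of calcification, one of −0.15 (edgeR adjusted p = 0.00758). Both were lower within the fold limit. *Matn1* and *Ucma*, further products of chondrocytes, had at most 2 and 3 counts in any sample.

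Of the 8 tested transcription regulators of cartilage, 0 were called by edgeR, DESeq2 or limma-voom, though by edgeR 5 had an unadjusted and 3 an adjusted p under 0.05, the latter all higher. *Arid5b*, a cofactor that works with Sox9, had a log2 fold change of 0.18 (edgeR adjusted p = 0.000849). *Zfp219* and *Wwp2*, also linked to Sox9, had log2 fold changes of −0.07 and −0.08 and did not pass the test. *Barx1*, a homeobox factor of jaw and joint cartilage, was chosen after its values were seen. It had 0 to 2 counts in WT and 10 to 17 in *Hint1*-/- samples and was removed by the filter. The ratio of its summed counts, 50 to 5, was 9.99 with an exact interval of 4.01 to 32.1, and it was called when no filter was used.

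Of the 9 tested growth signals and receptors, 0 were called by edgeR, DESeq2 or limma-voom, and 3 had an unadjusted p under 0.05 by edgeR. *Bmp4*, a growth factor that induces cartilage and bone, had 376 to 425 counts in WT and 481 to 575 in *Hint1*-/- samples. This is a log2 fold change of 0.41 (edgeR adjusted p = 1e-04), inside the fold limit, and it was the 1 gene of this list with an adjusted p under 0.05. *Grem1*, which encodes an inhibitor of BMPs, had a log2 fold change of 0.10 and *Bmpr1b*, a BMP receptor, one of 0.16. Neither passed the test.

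The 15 genes for making chondroitin sulphate, the sugar chain that aggrecan carries, were all tested and 0 were called by edgeR, DESeq2 or limma-voom. By edgeR, 7 had an unadjusted p under 0.05, and without the fold limit 4 were higher and 2 lower. *Ugdh*, which makes the precursor UDP-glucuronic acid, had a log2 fold change of 0.12 (edgeR adjusted p = 0.0131). *Chpf* and *Chpf2*, which lengthen the chain, had log2 fold changes of −0.03 and −0.06 and did not pass the test. The median of the list was 0.011 on the log2 scale.

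Of the 20 further genes of hypertrophic cartilage and bone, 10 were tested, and *Alpl* and *Dlx5* were called higher. *Alpl*, for the alkaline phosphatase that supports mineralization, had 33 to 47 counts in WT and 72 to 86 in *Hint1*-/- samples, with no overlap and a log2 fold change of 0.95 (edgeR adjusted p = 7.94e-05). *Dlx5*, a homeobox factor of bone and limb, had 1 to 7 counts in WT and 11 to 20 in *Hint1*-/- samples and passed the filter only through the latter. The fitted log2 fold change was 2.09 with the filter and also with no filter, where every gene with a count was tested (edgeR adjusted p = 0.000402). Its neighbour *Dlx6*, named after its values were seen, had 4 summed counts in WT and 27 in *Hint1*-/- samples, a ratio of 6.74 with an interval of 2.35 to 26.5. Antisense transcripts overlap *Dlx6*, and reads from the opposite strands cannot be told apart where counting is not stated to use strand.

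The abundant genes of this list were slightly lower. *Spp1* (osteopontin) had a log2 fold change of −0.28 (edgeR adjusted p = 8.69e-05). *Col1a1* had one of −0.17 (edgeR adjusted p = 0.0126) and *Sparc* (osteonectin) one of −0.13 (edgeR adjusted p = 0.0178), all within the fold limit. Of the defining genes of mature osteoblasts, *Bglap* (osteocalcin), *Ibsp* and *Dmp1* had under 10 counts in every sample. *Bglap2* had 6 to 13 counts in WT and 0 to 12 in *Hint1*-/- samples and was too low to be tested.

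Of the 10 tested relatives of the members, 2 were called, both lower. *Sox10* fell from 240 to 266 counts in WT to 41 to 48 in *Hint1*-/- samples, 5.77-fold lower, with a log2 fold change of −2.53 (edgeR adjusted p = 6.17e-13), where *Sox9* was higher. *Sox13*, a relative of *Sox5* and *Sox6*, had 142 to 152 counts in WT and 80 to 120 in *Hint1*-/- samples and a log2 fold change of −0.59 (edgeR adjusted p = 0.00121), just past the fold limit. The call of *Sox13* was lost when WT replicate 2, WT replicate 3, *Hint1*-/- replicate 2 or *Hint1*-/- replicate 4 was left out, with values from −0.71 to −0.51 over all alternatives. *Vcan*, for the proteoglycan versican, a relative of aggrecan, had a log2 fold change of 0.25 (edgeR adjusted p = 0.00247), the opposite sign to that of *Acan* and within the fold limit. *Thbs1* and *Thbs2*, for thrombospondins, had log2 fold changes of 0.06 and −0.09.

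**Figure D3:**
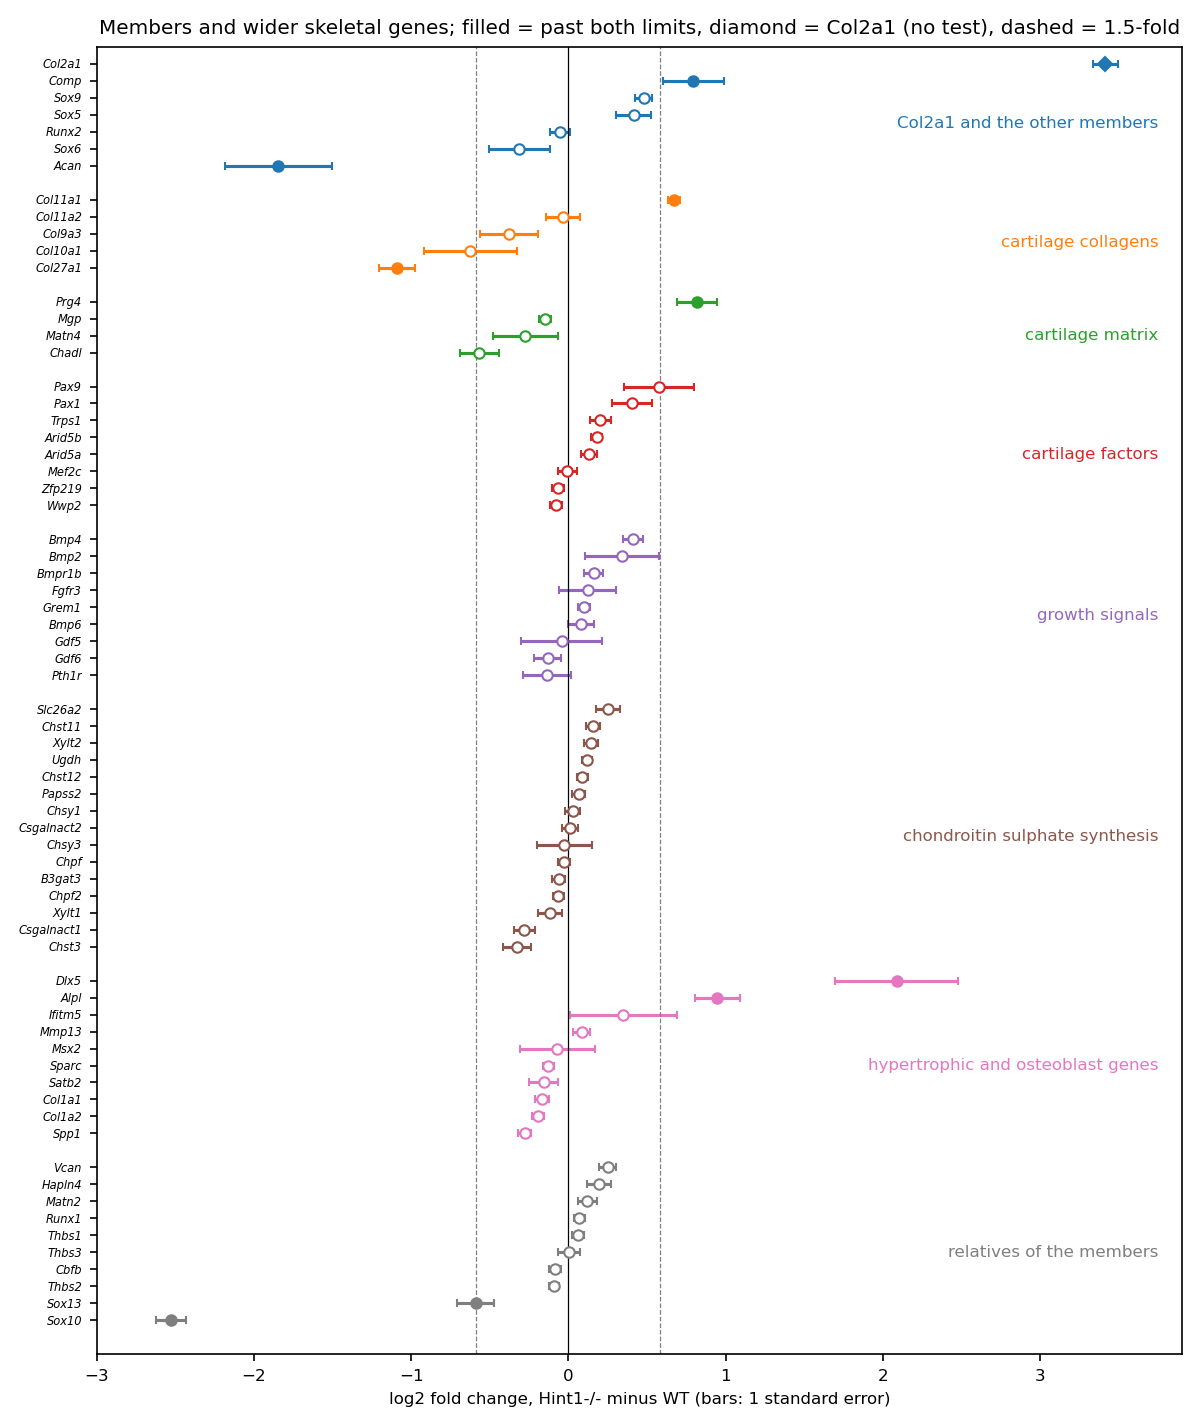
Fitted log2 fold change of each tested gene (*Hint1*-/- minus WT) with 1 standard error, by list; filled points are past the limits of adjusted p and fold, dashed lines mark a fold of 1.5, and *Col2a1*, drawn as a diamond, has no test. *Col2a1* lies at 3.41, *Dlx5* at 2.09, *Acan* at −1.84 and *Sox10* at −2.53, and most other points lie between the dashed lines.

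The neighbours of *Col2a1* showed no such rise. *Col2a1* lies at chr15:97975602-98004695 on the minus strand of mm10. Of the 37 genes in the files that start within 1 Mb of its start, 31 were tested and 1 was called, beside 2.83% over all genes. Their log2 fold changes ran from −1.20 to 0.39 with a median of 0.047. Within 0.5 Mb, 12 were tested, of which edgeR, DESeq2 and limma-voom called 0, and by edgeR 5 had an unadjusted and 2 an adjusted p under 0.05.

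In the direction of transcription, the nearest tested genes were *Tmem106c*, 40.5 kb from the *Col2a1* start, and *Vdr*, the vitamin D receptor gene, at 94.1 kb. Their log2 fold changes were −0.14 (edgeR adjusted p = 0.0518) and −0.11 (edgeR adjusted p = 0.464). On the other side, *Pfkm*, a glycolytic enzyme gene, and *Senp1*, a SUMO protease gene, had log2 fold changes of 0.06 and 0.01. These overlap at their ends on opposite strands, and the counting is not stated to use strand. The gene called was *Dhh*, which encodes the hedgehog ligand of Schwann cells and lies upstream, at −893.8 kb from the *Col2a1* start. It had 29 to 36 counts in WT and 11 to 16 in *Hint1*-/- samples, a log2 fold change of −1.20 (edgeR adjusted p = 0.000331).

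**Figure D4:**
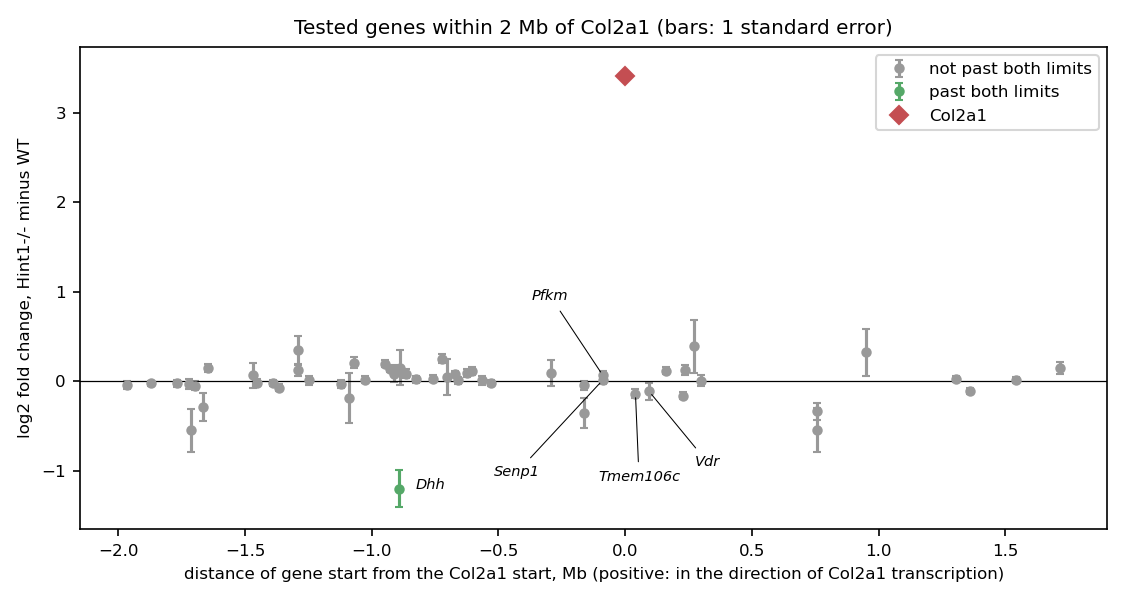
Log2 fold change (*Hint1*-/- minus WT) with 1 standard error of tested genes within 2 Mb of *Col2a1*, against the distance of their start from the *Col2a1* start in Mb. *Col2a1* (red) stands at 3.41, all neighbours are at or below 0.39, and *Dhh* (green) is the 1 neighbour past the limits of adjusted p and fold.

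The 5 genes whose profile over the 8 samples was nearest to that of *Col2a1* were on none of the skeletal lists. Likeness was the root mean square distance between the log2 CPM values, each minus its WT mean, over the 12780 other tested genes that averaged 20 or more counts. This distance mostly follows the size of the fold change, by which *Col2a1* was chosen. Genes that averaged fewer counts, such as *Dlx5* and *Barx1*, were left out. The absence of skeletal genes among the 5 is thus a description and supports nothing about the lists. *Fgf10*, a growth factor of limb and lung outgrowth, was nearest at 0.695, with 69 to 98 counts in WT and 430 to 494 in *Hint1*-/- samples. *Myh6*, the myosin heavy chain gene of the atrium, followed at 0.772, with 0 to 3 and 32 to 58 counts, and its reads could be shared with the near-identical *Myh7*. *Hpgd*, for an enzyme that inactivates prostaglandins, was at 0.904, *Lcn2*, for the iron-carrier protein lipocalin 2, at 0.983 and *Chil1*, for a chitinase-like protein that chondrocytes and macrophages also secrete, at 1.09.

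In bulk samples, more cells of a type and more RNA per cell cannot be told apart. The chondrocyte list summed to 26.5 to 28.2 CPM in WT against 53.1 to 56.7 CPM in *Hint1*-/- samples, a sum made largely of *Col2a1* and *Sox9* themselves. Of its 7 genes in the files 4 were tested, and *Matn1*, *Ucma* and *Hapln1* had under 10 counts in every sample. The osteoblast list summed to 25.6 to 28.1 CPM in WT against 25.5 to 29.2 CPM in *Hint1*-/- samples. The smooth muscle list, present in all samples as the label requires, summed to 1382 to 1497 CPM in WT against 1143 to 1234 CPM in *Hint1*-/- samples. Of its 9 genes 3 (*Myh11*, *Cnn1* and *Des*) were called lower, beside 1.49% over all genes. The fall of the sum was largely that of *Acta2*, from a mean of 826 to 578 CPM, which was lower within the fold limit. *Smtn* went the other way, from 156 to 185 CPM (edgeR adjusted p = 9.0e-05), also within the fold limit. *Tagln* and *Mylk* did not pass the test.

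Markers of other cell types also moved with genotype. The calls below stand beside 2.83% over all genes, 1.34% higher and 1.49% lower. The Schwann cell and neural crest list, which holds *Sox10*, summed to 49.9 to 56.1 CPM in WT against 12.7 to 15.2 CPM in *Hint1*-/- samples, with 6 of 7 genes called lower. The cardiac list summed to 1.91 to 2.67 CPM in WT against 6.89 to 11.6 CPM in *Hint1*-/- samples, with 4 of 5 tested genes called higher. Of these 4, *Myh6*, *Myh7* and *Myl7* entered the test only through their *Hint1*-/- samples, so the count is a description, and each was also called when no filter was used. The fibroblast list summed to 2074 to 2119 CPM in WT against 2965 to 3153 CPM in *Hint1*-/- samples, with 2 of 8 genes called higher and 1 lower. Its rise was largely that of *Dcn*, from a mean of 1112 to 1975 CPM. *Lum* was also called higher and *Dpt* lower, and *Ly6a*, *Cd34*, *Pi16* and *Clec3b* did not pass the test. The tendon list summed to 56.0 to 74.8 CPM in WT against 41.9 to 48.1 CPM in *Hint1*-/- samples, with 1 of 3 tested genes called lower. This fall was largely that of the called gene, *Fmod*, from a mean of 62.1 to 41.2 CPM, 1.51-fold lower. *Scx* and *Mkx* did not pass the test. *Tnmd*, too low to be tested, had 1 to 5 counts in WT and 5 to 10 in *Hint1*-/- samples. Macrophage markers were also plentiful, at 1324 to 1490 CPM in WT against 1079 to 1179 CPM in *Hint1*-/- samples, with 0 of 6 tested genes called by edgeR, DESeq2 or limma-voom. By edgeR 5 had an unadjusted p under 0.05, and the same count was lower without the fold limit, beside 10.2% over all genes. *C1qa*, also on the macrophage list, was not plentiful. It had 1 to 12 counts in WT and 6 to 15 in *Hint1*-/- samples and was too low to be tested. Endothelial markers were low, at 4.15 to 6.36 CPM in WT against 3.89 to 6.28 CPM in *Hint1*-/- samples, with 0 of 4 tested genes called by edgeR, DESeq2 or limma-voom and 1 at an unadjusted p under 0.05. The part of these cell types in the values of *Col2a1*, *Comp* and *Acan* was not tested.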

How the data were processed

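RNA was sequenced from 4 WT and 4 *Hint1*-/- samples of PDGF-BB-treated MASMCs, as poly(A) RNA on the BGISEQ-500 with reads of 50 bases. The authors deposited estimated counts per gene symbol for each sample, with no normalization, on mm10. Per the study's methods reads were mapped with HISAT2, while the submitters' processing notes name Bowtie2, RSEM 1.3.1 and DESeq2 1.4.5, and how these were combined is not given in the sources used here. Estimated counts were rounded to whole numbers.

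Samples were grouped by the genotype in their labels. With R 4.3.3 and edgeR 4.0.16, genes were filtered with filterByExpr (at least 10 counts at the median depth, or 0.480 CPM, in 4 samples), scaled by TMM factors and tested by glmQLFit followed by glmQLFTest, two-sided, with genotype as the only term. The fit was also run on simulated counts with the same spread for every gene. Only genes that averaged 20 or more counts were changed there, by 2-fold. That run does not cover changes in genes with fewer counts or folds near 1.5. The standard error was the log2 fold change over the square root of F. Log2 CPM used a prior count of 2. Limits were an adjusted p of 0.05 and a fold of 1.5, as in the study. Genes below the filter were compared as summed counts with exact Clopper-Pearson intervals of 95%, which cover counting error only. The depth of about equal libraries, 20778077 to 20888041 estimated counts, sets this error.

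Positions, the summed exon lengths behind RPKM and the transcript sequences came from GENCODE M21 by symbol, which placed 17733 of the 18533 symbols. The members, the lists and the tests were chosen with earlier results of these data known. Beside the members, the genes named were, for each wider list, every called gene and the 3 with the highest mean count, the 5 genes nearest in profile to *Col2a1*, the nearest tested neighbours of *Col2a1* on each side and every called one, and *Hint1*. Genes named outside this rule are collagens, markers, or genes said to be chosen after their values were seen. Alternatives were DESeq2's size factors, upper-quartile normalization, other filters, a block for the replicate number, omission of single samples, DESeq2 1.42.0, limma-voom (limma 3.58.1), no fold limit, other windows around *Col2a1* and the longest transcript as length. The result for 1 marker gene is not reported here, and its list was read without it.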

Additional observations from a re-analysis of the deposited data

Results flagged for a closer look

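In 28 groups of 4 samples, 1 for each genotype of the tested members and the called genes of the wider lists, 3 held a sample whose gap to its nearest neighbour was large against the range of the group (over 0.829 of the range, Dixon's limit for 4 samples). The gap and the range were taken on log2 CPM. Chance gives about 1.4 such groups. For *Comp* it was WT replicate 3, with 15 counts against 24 to 26 and a gap of 0.850 of the range. On the scale of counts or CPM the gap of *Comp* was just under the limit. For *Col27a1* it was *Hint1*-/- replicate 2, with 58 counts against 68 to 69 and a gap of 0.922. For *Dlx5* it was *Hint1*-/- replicate 1, with 11 counts against 19 to 20 and a gap of 0.908. In each case the sample stayed on its own genotype's side of the other genotype.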

How the results depend on the processing

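Over 89 alternative values of the 6 tested members other than *Col2a1*, 0 changed direction or crossed a limit. The ranges over the alternatives were 0.44 to 0.51 for *Sox9*, 0.34 to 0.46 for *Sox5* (edgeR, DESeq2 or limma-voom adjusted p up to 0.0459), 0.64 to 0.87 for *Comp* and −1.97 to −1.59 for *Acan* on the log2 scale, and 3.37 to 3.46 for *Col2a1*. The count of called members among the other 9 was 2, and it was 1 with at least 10 counts in every sample, where *Acan* was not tested, and 4 without the fold limit. Without the fold limit the calls rose from 7 to 25 in the wider lists, from 383 to 2907 over all genes and from 1 to 7 near *Col2a1*, where a window of 0.5 Mb left 0. Leaving out 1 sample gave 2 in each case for the members, 6 to 8 for the wider lists, 350 to 390 over all genes and 1 near *Col2a1*. With lengths of the longest transcripts, 8 of 10 genes kept their place in the order of levels in both genotypes. Over all genes DESeq2 called 336. The replicate block gave 2 called members, 7 in the wider lists, 1 near *Col2a1* and a log2 fold change of 3.41 for *Col2a1*. Over all genes it gave 382 calls, 183 higher and 199 lower, beside 182 and 201 in the main fit. Deviations of same-numbered samples correlated at 0.183, 0.136, −0.049 and 0.063 over 11849 genes. The highest correlation with another number was 0.066, 0.050, 0.198 and 0.051. Replicates 1, 2 and 4 thus correlated best with their own number, and replicate 3 did not. Whether the numbers pair the samples is not settled by these values, and the labels do not say. Depth limits *Hapln1*, *Matn3*, *Sp7* and *Acan*, which had at most 23 counts in any sample.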
